A study of Arabidopsis thaliana with 12 samples.

Results

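The GH3 auxin amido synthetases are enzymes that join auxin to an amino acid. Their members here are GH3.1 (AT2G14960), GH3.2 (AT4G37390), GH3.3 (AT2G23170), GH3.4 (AT1G59500), GH3.5 (AT4G27260), GH3.6 (AT5G54510), GH3.9 (AT2G47750) and GH3.17 (AT1G28130). They were chosen by locus identifier, and all 8 were listed in both deposited tables. The table that gives the p-values holds 28642 genes. Of the 8, GH3.5 passed against control in all 3 treatments, as did 2.99% of all genes. The family relatives GH3.10 and GH3.12, outside the 8, also passed in all 3. GH3.3 and GH3.9 passed with both compounds, as did 26.3% of all genes. The calls of GH3.5 and GH3.9 are lost under Bonferroni adjustment, and that of GH3.3 is kept. GH3.1, GH3.2, GH3.4, GH3.6 and GH3.17 passed in no comparison. Passing means a p-value under 0.05 once adjusted by the Benjamini-Hochberg method over all 28642 genes.

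Conjugation to aspartate or glutamate takes indole-3-acetic acid, the main natural auxin, out of the active pool, while some other amide conjugates can be cut again by hydrolases to release it. Several GH3 genes are classical early auxin response genes, switched on within the same signalling pathway whose input their enzymes then lower, which makes a negative feedback. In leaves this pathway acts beside synthesis by TAA1 and YUCCA enzymes, oxidation, glucosylation and methylation in setting the amount of active auxin.

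Leaf RNA came from the first pair of leaves on Arabidopsis thaliana seedlings at 10 days after stratification, a stage the labels call proliferation. The 4 groups, each with 3 biological replicates, grew on control medium (MS at reduced strength), on the same medium with 25 mM mannitol, with 0.1 µM NAA, or with 0.1 µM NAA and 25 mM mannitol. Mannitol is a polyol that lowers the water potential of the medium and so gives mild osmotic stress, and NAA (1-naphthaleneacetic acid) is a synthetic auxin. No genotype, transgene or ecotype is given in the labels. The title places the question in how auxin signalling and osmotic stress meet in the control of leaf growth.

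The values reported are the authors' p-values for each treatment against control. They hold no level, direction, fold change or replicate spread, so whether a GH3 transcript was higher or lower in a treated group is not analysed here. The library columns could not be tied to a sample by their headers and were not used, for which reason the leaf label was not checked against marker levels and the depth behind each value is unknown. The 3 comparisons share the control libraries, and no comparison of the combined treatment with either single treatment was made. In bulk leaf RNA, a difference in how many cells express a gene cannot be told apart from a difference in RNA per cell.

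The upstream sequences of 5 members are shown because they carry, or lack, the short motif through which auxin response factors are known to bind DNA, and because GH3.3, GH3.5 and GH3.9 are the members that passed. Each is the 300 bases before the annotated transcription start, 5′ to 3′ on the gene's strand, from RefSeq TAIR10.1. Capitals mark TGTCTC, the first described auxin response element core, and CACGTG, the G-box.
GH3.5, chr4:13653279-13653578, plus strand: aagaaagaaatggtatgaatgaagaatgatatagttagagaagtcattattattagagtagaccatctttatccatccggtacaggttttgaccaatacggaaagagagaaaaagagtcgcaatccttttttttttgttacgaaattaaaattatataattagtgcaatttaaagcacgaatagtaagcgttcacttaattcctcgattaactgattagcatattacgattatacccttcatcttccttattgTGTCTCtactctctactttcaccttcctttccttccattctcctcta
GH3.6, chr5:22133689-22133988, minus strand: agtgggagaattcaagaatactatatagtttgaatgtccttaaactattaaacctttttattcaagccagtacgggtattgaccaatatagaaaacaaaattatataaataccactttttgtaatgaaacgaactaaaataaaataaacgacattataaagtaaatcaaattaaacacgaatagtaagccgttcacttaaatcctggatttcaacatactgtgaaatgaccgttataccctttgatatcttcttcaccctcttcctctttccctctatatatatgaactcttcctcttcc
GH3.3, chr2:9866563-9866862, minus strand: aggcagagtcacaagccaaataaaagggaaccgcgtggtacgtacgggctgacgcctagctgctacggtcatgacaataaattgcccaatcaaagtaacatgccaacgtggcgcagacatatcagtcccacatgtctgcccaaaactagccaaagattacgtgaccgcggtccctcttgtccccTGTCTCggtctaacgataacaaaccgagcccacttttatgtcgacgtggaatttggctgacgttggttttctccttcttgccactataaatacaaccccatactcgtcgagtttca
GH3.2, chr4:17579318-17579617, plus strand: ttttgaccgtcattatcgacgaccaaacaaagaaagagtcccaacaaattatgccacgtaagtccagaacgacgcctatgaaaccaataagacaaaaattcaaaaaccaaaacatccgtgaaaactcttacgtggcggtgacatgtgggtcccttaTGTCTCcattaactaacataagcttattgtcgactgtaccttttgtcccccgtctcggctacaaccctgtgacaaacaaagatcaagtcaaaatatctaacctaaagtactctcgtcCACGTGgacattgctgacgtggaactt
GH3.9, chr2:19563961-19564260, minus strand: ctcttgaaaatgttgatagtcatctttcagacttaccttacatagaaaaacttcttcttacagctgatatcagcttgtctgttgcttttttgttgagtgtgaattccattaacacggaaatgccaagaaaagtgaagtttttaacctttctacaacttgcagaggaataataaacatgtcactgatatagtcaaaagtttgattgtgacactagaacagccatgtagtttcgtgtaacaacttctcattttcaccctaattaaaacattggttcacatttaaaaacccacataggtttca

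TGTCTC was searched on both strands and lay in 3 of the 8 GH3 windows, against 13% of 27443 windows of the same length at protein-coding genes. Those members were GH3.2, GH3.3 and GH3.5, each with 1 match on the gene's own strand. The first base of the match lay 144 bases before the start of GH3.2, 116 before that of GH3.3 and 47 before that of GH3.5. TGTCGG, a variant that auxin response factors are known to bind tightly, lay in 0 of the 8 windows and in 4.91% of all. CACGTG, which reads the same on both strands, lay in 1 of 8 windows, that of GH3.2 at 27 bases before the start, and in 7.09% of all. TGTCTC thus occurred upstream of a member that passed in every comparison, of one that passed with both compounds and of one that passed in none, and GH3.9, which passed with both compounds, had no match in this window. With the window extended to 1000 bases, TGTCTC lay upstream of 6 of the 8 members, GH3.6 and GH3.17 being the others. The share was 39.6% over the 27443 protein-coding genes. TGTCGG then lay upstream of 1 of 8 members, against 14.6% of those protein-coding genes. CACGTG lay upstream of 1 of 8, against 14.8%, and both matches were at GH3.2. These matches describe letters in a window and were not tested as binding sites.

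**Figure D1:**
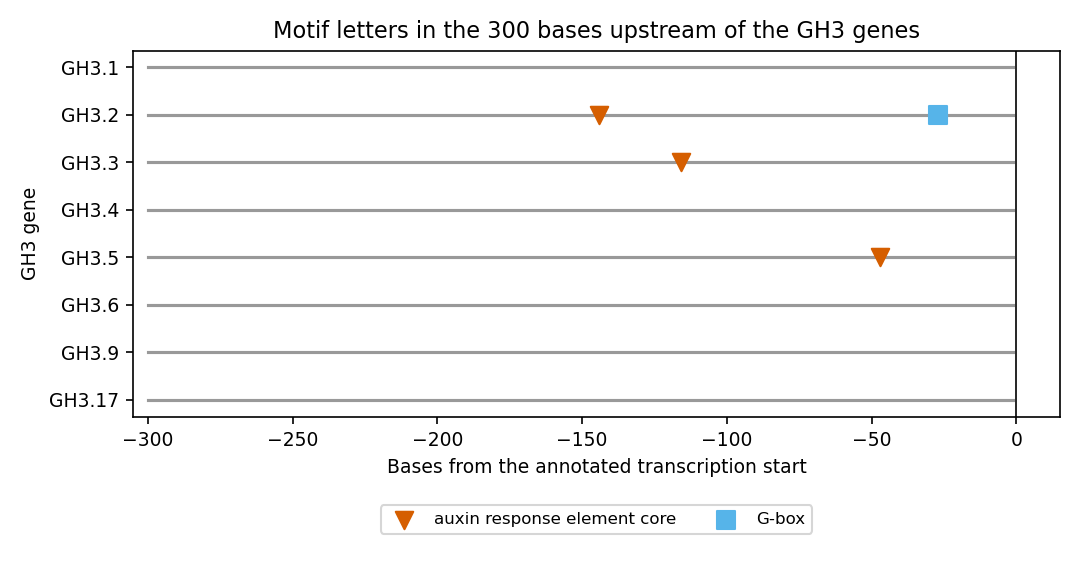
Map of motif matches in the 300 bases upstream of the 8 GH3 genes, with bases from the annotated transcription start on the horizontal axis and 1 line per gene. Triangles stand for the first base of the auxin response element core and the square for the G-box, with matches at GH3.2, GH3.3 and GH3.5 and none in the other 5 windows.

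The upstream windows of GH3.5 and GH3.6 shared the longest exact run of all 28 pairs of members, 14 bases that begin 125 bases before the start in both genes (cacgaatagtaagc). The median longest run over the pairs was 9 bases. GH3.5 passed in all 3 comparisons and GH3.6 in none, and whether their responses differ from each other was not tested.

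GH3.5, also named WES1, encodes an enzyme that conjugates auxin and is also known to act on salicylic acid. In the authors' deposited table its p was 0.00237 with mannitol, 0.000989 with NAA and 7.07e-05 with the combination. After Benjamini-Hochberg adjustment of the authors' deposited table these became 0.0301, 0.0111 and 0.000569. It was the only GH3 member of the 8 to pass under mannitol, where 9.07% of all genes passed, and the only one of the 8 to pass under NAA, where 12.8% of all genes passed. Over all genes 855 of 28642 (2.99%) passed in all 3 comparisons, and GH3.5 was 1 of these. Its calls under mannitol and NAA do not hold at an adjusted 0.01, where 6.06% and 8.62% of all genes passed, and no call of GH3.5 holds under Bonferroni adjustment, where 2.44%, 3.31% and 8.46% of all genes passed with mannitol, NAA and both. By rank it stood at a similar place in each comparison, with 7.89%, 8.88% and 12.4% of all genes having a smaller p in the authors' deposited table under mannitol, NAA and both.

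GH3.6, also named DFL1 for the dwarf in light phenotype of plants that overexpress it, had p-values of 0.156, 0.296 and 0.134 under mannitol, NAA and both in the authors' deposited table. Its adjusted p-values were 0.556, 0.699 and 0.321 from the authors' deposited table. Its smallest value, 0.134 in the authors' deposited table, was above the smallest of every other member except GH3.4. A p that misses the threshold does not show that a transcript did not differ.

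GH3.3 is one of the fast auxin-induced members of the family. In the authors' deposited table its p was 0.0137 with mannitol and 0.0162 with NAA, and 1.27e-10 with the combination, the smallest of all 24 GH3 values. The adjusted p was 0.116 and 0.101 for the single treatments, and 3.06e-09 for the combination, from the authors' deposited table. With both compounds 4.14% of all genes had a smaller p in the authors' deposited table, against 11.7% under mannitol and 16.1% under NAA. GH3.3 therefore lay under an unadjusted 0.05 in all 3 comparisons and passed after adjustment with both compounds, where 26.3% of all genes passed. Whether the combination differed from each single treatment was not tested.

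GH3.9, known for an influence on root growth, passed with both compounds, where the authors' deposited table gave 0.00143 and adjustment 0.00777, a call that holds at an adjusted 0.01 (19.3% of all genes) and not under Bonferroni adjustment. Under mannitol its p was 0.0127 (0.11 adjusted) and under NAA 0.0534 (0.24 adjusted), from the authors' deposited table. Its locus, chr2:19560127-19563960 on the minus strand of TAIR10.1, is overlapped over 509 bases by the long noncoding RNA gene AT2G09955 on the opposite strand. That gene also covers 104 bases of the upstream window shown above. No other member overlaps an annotated gene. The libraries came from a stranded kit, but the strand setting of the counting is not given in the sources used here. It is therefore not known whether reads within the 509 overlapping bases were separated between AT2G09955 and GH3.9. The values of GH3.9 are uncertain to that extent.

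GH3.2, known from the YADOKARI 1 dwarf mutant, came closest to passing among the members that did not. In the authors' deposited table its p was 0.00815 under mannitol, 0.0937 under NAA and 0.0351 with both, and the adjusted p 0.0789, 0.355 and 0.111. The largest deposited p that passed under mannitol was 0.00453 in the authors' deposited table, so GH3.2 did not pass. There 10.3% of all genes had a smaller p than GH3.2, while 9.07% of all genes passed. GH3.17, known to prefer glutamate as its amino acid, had p-values of 0.0679, 0.0364 and 0.182 under mannitol, NAA and both in the authors' deposited table (adjusted 0.338, 0.183 and 0.405). It was under an unadjusted 0.05 with NAA and in no other comparison.

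GH3.1 and GH3.4 gave values of another kind. The p of GH3.1 under mannitol was 0.317 in the authors' deposited table, the value that a standard normal z of 1 gives in a two-sided test, and 1235 genes lay within 1e-06 of it. Under NAA and with both compounds GH3.1 had p-values of 0.0523 and 0.0866 in the authors' deposited table (adjusted 0.236 and 0.227). These values were shared as well, with 4 genes in all at the same p under NAA and 6 with both. The authors' deposited table listed GH3.4 at a p of 1 in all 3 comparisons, as it did 6422 genes in all (22.4%). No difference could be seen for GH3.4 in these values, and its level is not analysed here.

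**Figure D2:**
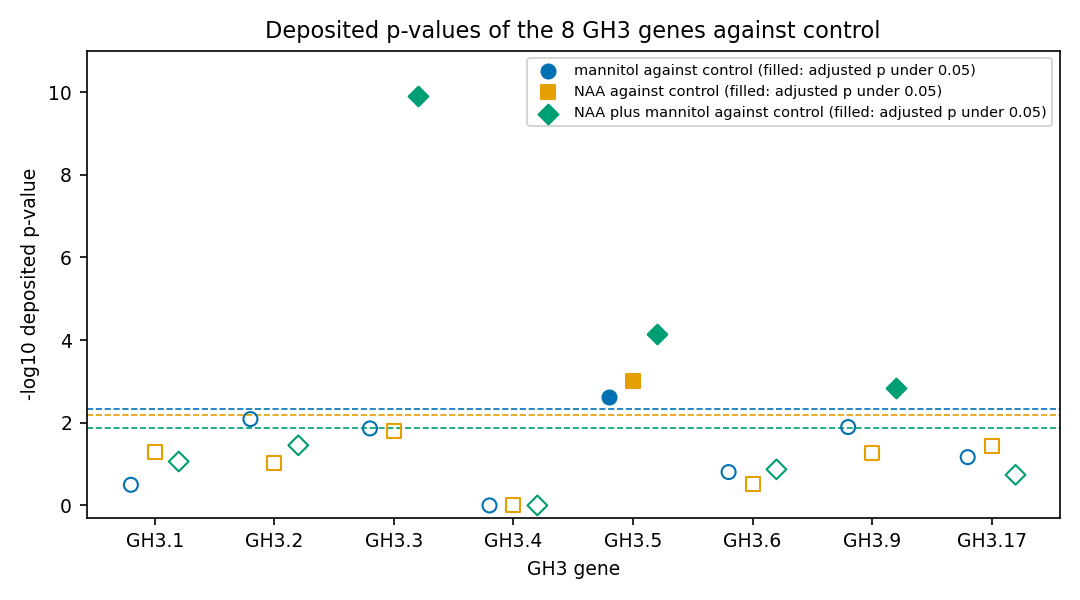
Deposited p-values of the 8 GH3 genes as -log10 p on the vertical axis, with 1 point per comparison and filled points for an adjusted p under 0.05. Dashed lines stand at the largest deposited p that passed in the comparison of the same colour (0.00453, 0.00636 and 0.0131 for mannitol, NAA and both), and the 5 filled points are GH3.5 in every comparison and GH3.3 and GH3.9 with both compounds.

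Counted together, 1 of 8 members passed under mannitol, 1 of 8 under NAA and 3 of 8 with both compounds (12.5%, 12.5% and 37.5%), beside 9.07%, 12.8% and 26.3% of all genes. With 8 members these shares lie near those of all genes and are not a result about the family. At an unadjusted 0.05 the members counted 4, 3 and 4 of 8, beside 17.9%, 21.8% and 33.9% of all genes. The median p of the members in the authors' deposited table was 0.0408, 0.0528 and 0.0608, beside 0.459, 0.406 and 0.293 over all genes. The latter medians include genes at a p of 1, which made up 24.6%, 25.4% and 23.8% of genes in the 3 comparisons. Over genes under 1 in all 3 comparisons the medians in the authors' deposited table were 0.299, 0.24 and 0.0805.

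By coding sequence the members formed 2 close sets and 2 more distant genes. GH3.2 and GH3.4 were 90.0% identical in nucleotides, the highest of 28 pairs, and GH3.3 was 79.8% identical to GH3.2 and 77.7% to GH3.4. GH3.1 was between 67.9% and 70.8% identical to these. GH3.5 and GH3.6 formed a second pair at 84.1%. GH3.9 and GH3.17 were 61% identical to each other, and GH3.9 was at most 61% identical to any member. GH3.9 and GH3.17 have 4 exons in the annotated transcript used and the other members 3, with coding lengths from 1758 bases in GH3.9 to 1839 in GH3.5 and GH3.6.

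**Figure D3:**
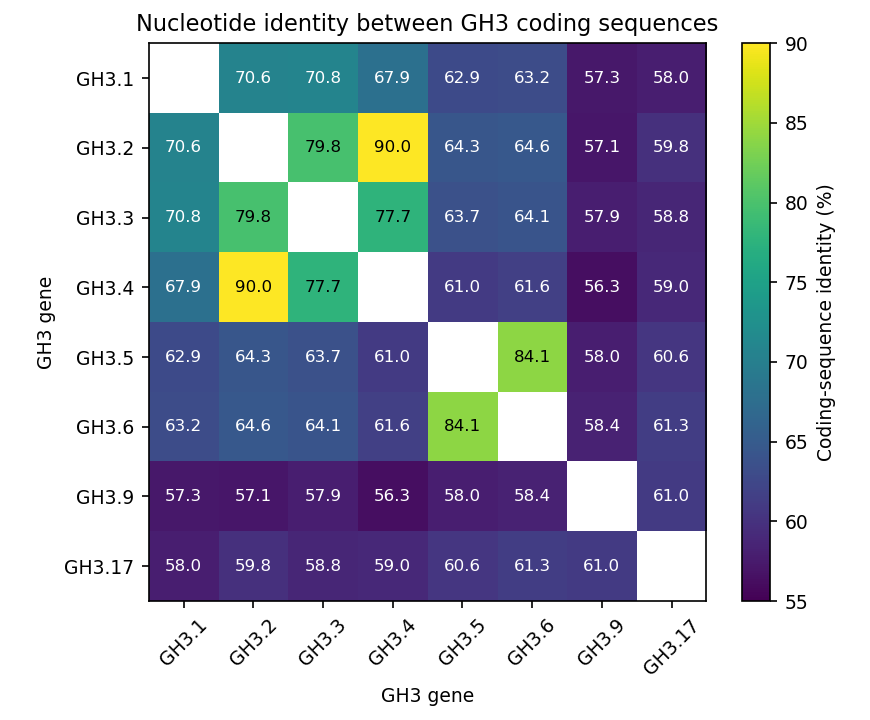
Nucleotide identity in percent between the coding sequences of each pair of the 8 GH3 genes, as colour and number, with the diagonal left blank. GH3.2 with GH3.4 (90.0%), GH3.5 with GH3.6 (84.1%) and GH3.2 with GH3.3 (79.8%) are the 3 highest pairs, and GH3.4 with GH3.9 (56.3%) the lowest.

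Where 2 members share long identical stretches, short reads can be split between them or dropped, which bears on GH3.2, GH3.3 and GH3.4. The longest such stretches within an exon are shown for the 2 closest pairs, with shared bases in capitals and 12 flanking coding bases in lower case. All lie in exon 3.
GH3.2, chr4:17581160-17581248, plus strand: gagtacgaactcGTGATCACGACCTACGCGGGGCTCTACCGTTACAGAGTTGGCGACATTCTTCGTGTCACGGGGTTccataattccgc
GH3.4, chr1:21855013-21855101, minus strand: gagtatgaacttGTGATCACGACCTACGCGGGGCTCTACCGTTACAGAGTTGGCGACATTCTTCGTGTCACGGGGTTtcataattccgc
GH3.5, chr4:13655806-13655871, plus strand: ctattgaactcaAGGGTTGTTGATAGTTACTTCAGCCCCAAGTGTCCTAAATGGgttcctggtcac
GH3.6, chr5:22131342-22131407, minus strand: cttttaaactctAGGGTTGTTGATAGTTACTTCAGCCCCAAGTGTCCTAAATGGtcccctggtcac

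The run common to GH3.2 and GH3.4 was 65 bases and that of GH3.5 and GH3.6 was 42. Of all words of 50 bases in the annotated mRNA, 1.65% in GH3.2, 1.6% in GH3.4 and 0.338% in GH3.3 also occurred in another annotated mRNA, in each case that of another of these 3 genes. No such word of GH3.1, GH3.5, GH3.6, GH3.9 or GH3.17 was found in another gene's mRNA. Noncoding genes such as AT2G09955, which overlaps GH3.9, were not searched. Words of 50 bases also miss shorter runs, such as the 42 bases of GH3.5 and GH3.6. The counting is not given in the sources used here. To the extent that it could split reads from the words they share, the values of GH3.2, GH3.3 and GH3.4 are uncertain.

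Among the other 11 genes annotated as GH3 family proteins, 2, 4 and 3 passed under mannitol, NAA and both. These were 18.2%, 36.4% and 27.3% of the list, beside 9.07%, 12.8% and 26.3% of all genes. GH3.10 (DFL2), a light-related relative, and GH3.12 (PBS3), an enzyme of salicylic acid synthesis in defence, passed in all 3 comparisons. So did 2.99% of all genes. GH3.12 had p-values of 6.84e-14 with mannitol, 6.74e-15 with NAA and 0.000993 with the combination in the authors' deposited table (adjusted 1.42e-11, 1.06e-12 and 0.00568). GH3.10 had adjusted p-values of 0.00794, 0.0195 and 6.62e-06 from the authors' deposited table. Its locus overlaps AT4G03410 on the opposite strand over 432 bases, so its values are uncertain in the same way as those of GH3.9. GH3.11 (JAR1), which makes the active jasmonate conjugate with isoleucine, passed under NAA (adjusted p = 0.00105 from the authors' deposited table), as did AT5G51470 (0.0179). AT5G13370 was listed at a p of 0 with both compounds in the authors' deposited table, while its p was 0.0905 under mannitol and 0.758 under NAA. Of its words of 50 bases 1.97% also occurred in the neighbouring family genes AT5G13360 and AT5G13380, so its values are uncertain.

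In the list of genes annotated as auxin conjugate hydrolases or their relatives, 1, 0 and 2 of 7 passed under mannitol, NAA and both. The shares were 14.3%, 0% and 28.6%, beside 9.07%, 12.8% and 26.3% of all genes. At an unadjusted 0.05 the counts were 3, 1 and 2, beside 17.9%, 21.8% and 33.9% of all genes. ILR1 passed under mannitol, at 0.0341 after adjustment of the authors' deposited table. The amidohydrolase genes IAR3 (3.15e-06) and ILL2 (1.59e-07) passed with both compounds after adjustment of the authors' deposited table. The median p of these hydrolases in the authors' deposited table was 0.236, 0.564 and 0.105, beside 0.459, 0.406 and 0.293 over all genes.

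In the auxin synthesis list 1, 2 and 3 of 12 genes passed under mannitol, NAA and both. These were 8.33%, 16.7% and 25% of the list, beside 9.07%, 12.8% and 26.3% of all genes. YUC8, a flavin monooxygenase gene of the last synthesis step, passed under mannitol (adjusted p = 0.00529) and NAA (0.00243) but not with both (0.356), from the authors' deposited table. YUC9 passed under NAA (0.0147) and with both (0.0098), and TAA1, the aminotransferase of the first step, with both (3.31e-06), from the authors' deposited table after adjustment. So did YUC5 (0.0338 after adjustment of the authors' deposited table). The median p of the list was 0.278, 0.256 and 0.142 in the authors' deposited table, beside 0.459, 0.406 and 0.293 over all genes. Of 5 genes for other ways to inactivate auxin, among them IAMT1, UGT74D1 and UGT84B1, the Benjamini-Hochberg adjusted count passing was 0 in every comparison. Under an unadjusted 0.05 there were 1, 0 and 0, beside 17.9%, 21.8% and 33.9% of all genes. The 1 was AT1G14130 under mannitol, at 0.0139 in the authors' deposited table. The median p of the 5 genes in the authors' deposited table was 0.682, 0.738 and 0.219. That of the other GH3 family genes was 0.317 in each comparison. In each case 0.317 is the p of AT1G48670, the same z of 1 value described for GH3.1, so it is not a steady level of the list. Beside the shares of all genes given above, none of these counts is read as particular to a list.

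**Figure D4:**
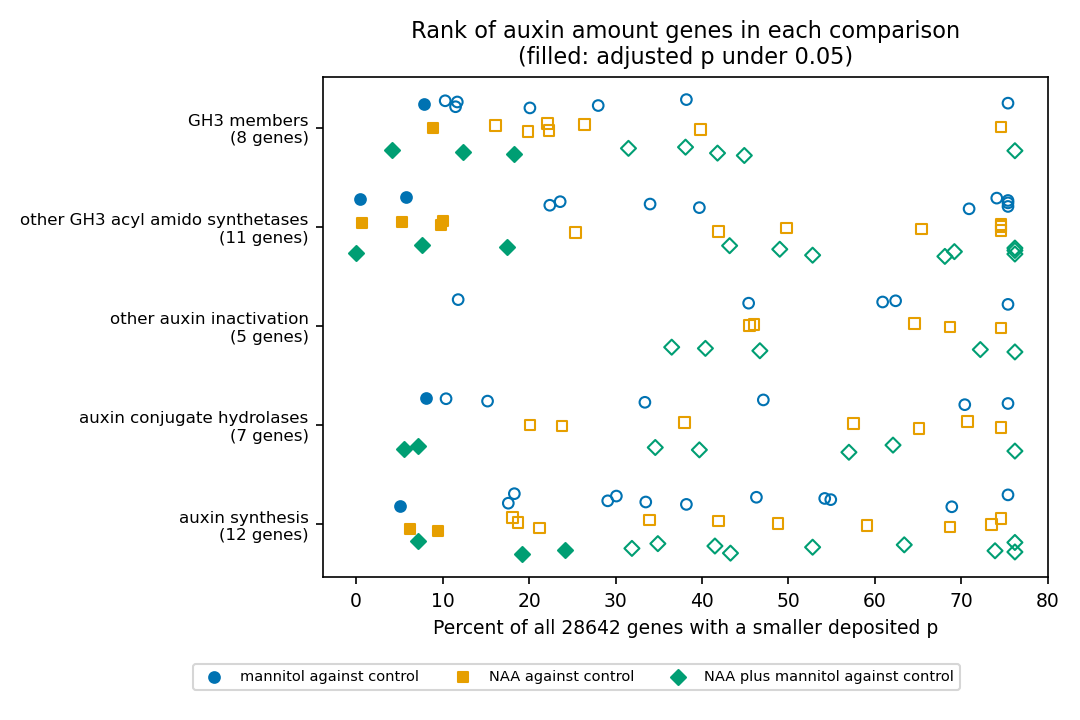
Percent of all 28642 genes with a smaller deposited p, for each gene of the 5 lists (rows) in the 3 comparisons (marker and colour), with filled markers for an adjusted p under 0.05. Points at 75.4%, 74.6% and 76.2% are genes at a p of 1, and the GH3 members other than GH3.4 lie between 4.14% and 44.9%.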

How the data were processed

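The authors deposited 1 p-value per gene and comparison for 28642 genes, per the file headers, which call it a detection p-value. The sources used here do not state the test behind it, any adjustment or the handling of replicates. The genome was TAIR10 according to the submitters' processing notes, and libraries were made with a stranded mRNA kit, per the labels' protocols. A further 24 library columns carry headers that match no sample label and were not used, so the planned model on counts was not run and depth is unknown.

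P-values were adjusted by the Benjamini-Hochberg method over all genes in Python 3.11.15 with numpy 2.4.6 and pandas 2.3.3, and the step was tested on simulated data. The alternatives tried were Bonferroni adjustment, no adjustment, adjustment over genes under a p of 1, adjustment without genes at a p of 0, a threshold of 0.01 and a t reading. Names, loci and sequences came from RefSeq TAIR10.1, whose annotation matched 28009 identifiers and all 8 members. The deposited tables hold no coordinates. Coding sequences of the longest annotated form were aligned globally in Biopython 1.88 (match 1, mismatch -1, gap opening -4, gap extension -0.5), and identity is matches over alignment columns. Proteins were not used here.

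All 8 members were named in every comparison, and of the other 4 lists those members that passed, with other members given as values. A gene whose symbol the reference table does not give is named by its locus. The members and lists were chosen with earlier results of these data known.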

Additional observations from a re-analysis of the deposited data

How the results depend on the processing

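The counts of GH3 members passing were 1, 1 and 3 under mannitol, NAA and both. Bonferroni adjustment left 0, 0 and 1 (GH3.3) of 8, beside 2.44%, 3.31% and 8.46% of all genes. Under an unadjusted 0.05 there were 4, 3 and 4, beside 17.9%, 21.8% and 33.9% of all genes. At an adjusted 0.01 there were 0 under mannitol and 0 under NAA, and the same 3 genes with both, beside 6.06%, 8.62% and 19.3% of all genes. Adjustment over genes under a p of 1 in all 3 comparisons and adjustment without genes at a p of 0 each left the called members the same. Each p was also turned into a normal z and judged by Student's t at 4 degrees of freedom, an alternative chosen after seeing the data. A p of 0 gives no finite z. The 78, 74 and 423 genes at a p of 0 under mannitol, NAA and both were therefore all set to a z of 8.29. With that setting 0 of all 28642 genes passed after Benjamini-Hochberg adjustment in every comparison. The 0 depends on this cap, so it does not show that no gene would pass a small-sample test. Nor does the count of 0 members say anything about them in particular. By the t reading 1, 1 and 3 members were under an unadjusted 0.05. Under that reading GH3.3 with both compounds had an adjusted p of 0.0724 and GH3.5 had 0.487, 0.339 and 0.133. These changes follow from the stricter or looser limits by construction.

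Other count models, scalings, filters, leaving out each library, the comparisons of the combined treatment with each single one and the interaction were not run, because they rest on values per library, which were not used. No paired analysis was possible because no column matches a numbered replicate. What depth limits is not analysed here.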
